A study of Mus musculus with 6 samples.

Results

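The circadian clock genes were followed in mouse skeletal muscle that had received TFEB, a basic helix-loop-helix factor that is known to switch on lysosomal genes. The 10 genes are Arntl and Clock of the positive arm, Per1, Per2, Per3, Cry1, Nr1d1 and Nr1d2 of the negative arm, and Dbp and Tef as outputs. They were chosen by name, taking every probe set whose only platform gene symbol is one of these names, which gave 18 probe sets. They are 10 of the 12393 genes with such a probe set. In 3 C57BL/6 mice (TFEB group) an adeno-associated virus (AAV) carrying murine Tcfeb, the older symbol of Tfeb, had been injected into the muscle, and in 3 other C57BL/6 mice (GFP control) the AAV carried green fluorescent protein. All 6 mice were wild type. The labels give an age of 1 month, and the study's text speaks of adult mice. Both vectors used the CMV promoter per the study's text, a viral promoter that is active in many cell types and is not restricted to muscle fibres. Each mouse gave 1 Affymetrix array, on which a probe set reads a transcript with short oligonucleotides. The muscle taken and the time of day were not found in the sources used here. The Tfeb probe set, which may or may not read the vector's cDNA, had log2 values of 7.92, 7.68 and 7.61 in the TFEB arrays and 8.49, 8.47 and 8.58 in the GFP arrays, lower in the TFEB group, so it does not check the delivery of the vector. GFP control replicate 2 stood apart from its group, with 844 and 725 probe sets over 2-fold from the other controls, which differed from each other at 87.

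In the circadian clock, the proteins of Arntl (also called BMAL1) and Clock pair on E-box motifs and switch on the Per and Cry genes, whose proteins return to the nucleus and block that pair. A second loop runs through Nr1d1 and Nr1d2, which encode the heme-binding repressors REV-ERB alpha and beta. These compete with the activating ROR receptors at a shared element in the Arntl promoter. Dbp and Tef, with their relative Hlf, encode activators of the PAR bZIP family that bind D-box motifs and carry the rhythm to output genes, while Nfil3 represses the same motifs. Skeletal muscle keeps such a clock, and genes of its glucose and lipid use are known to follow it.

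Promoter sequence is shown for most members with a match to a clock motif (not for Per3), to set the letters beside the levels described below. Dbp is shown as a member without a match in the window searched. RefSeq windows of build GRCm38.p6, running from 250 bases before to 50 bases after each start, were given for 9 of the 10 genes (14 windows, none for Per2). They were searched on both strands for the E-box CACGTG, the variant E-box CACGTT, the D-box TTATGNAA and the ROR/REV-ERB element TAGGTCA. The E-box lay in the windows of Per1, Cry1 and Tef, and in 7.15% of all 32851 windows. The variant E-box lay in Cry1 and Nr1d1 (4.68% of all windows), the D-box in Per1 and Per3 (3.38%) and the ROR/REV-ERB element in Arntl (2.61%). The longer form TCACGTGA, which contains the E-box and is the core of the motif known for TFEB, lay in none of the 14 windows and in 0.974% of all windows. Sequence outside the windows was not searched, so matches there are not known. Below, the 200 bases before the start are printed on the gene's strand for Nr1d1 (minus strand, chr11:98775378-98775577), Per1 (plus strand, the first of 2 starts, chr11:69098749-69098948), Cry1 (minus strand, chr10:85185055-85185254), Tef (plus strand, the first of 2 starts, chr15:81802473-81802672) and Dbp (plus strand, chr7:45705047-45705246), followed by 23 bases of Arntl just after the second of its 2 starts (plus strand, chr7:113207533-113207555). Capitals mark the motif matches, and a match is a run of letters and not a measured binding site.
Nr1d1: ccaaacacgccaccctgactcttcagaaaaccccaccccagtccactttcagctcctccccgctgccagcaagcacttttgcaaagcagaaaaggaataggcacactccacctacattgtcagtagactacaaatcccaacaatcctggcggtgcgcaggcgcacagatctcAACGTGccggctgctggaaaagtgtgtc
Per1: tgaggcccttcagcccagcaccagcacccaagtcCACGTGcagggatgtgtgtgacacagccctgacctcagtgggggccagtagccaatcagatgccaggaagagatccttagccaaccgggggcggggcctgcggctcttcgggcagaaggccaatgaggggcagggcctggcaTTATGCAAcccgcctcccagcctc
Cry1: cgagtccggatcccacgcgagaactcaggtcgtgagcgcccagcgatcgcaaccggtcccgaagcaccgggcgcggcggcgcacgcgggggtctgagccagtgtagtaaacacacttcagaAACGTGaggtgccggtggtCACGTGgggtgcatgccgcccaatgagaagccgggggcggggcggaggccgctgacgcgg
Tef: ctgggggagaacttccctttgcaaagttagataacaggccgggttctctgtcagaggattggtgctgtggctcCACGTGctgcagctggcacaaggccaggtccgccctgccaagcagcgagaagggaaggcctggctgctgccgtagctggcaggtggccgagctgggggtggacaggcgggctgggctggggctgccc
Dbp: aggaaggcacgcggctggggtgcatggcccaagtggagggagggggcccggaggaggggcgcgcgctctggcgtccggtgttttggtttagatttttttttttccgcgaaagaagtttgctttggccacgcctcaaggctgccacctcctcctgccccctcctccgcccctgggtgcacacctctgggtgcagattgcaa
Arntl: gcagaaagTAGGTCAgggacgga

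**Figure D1:**
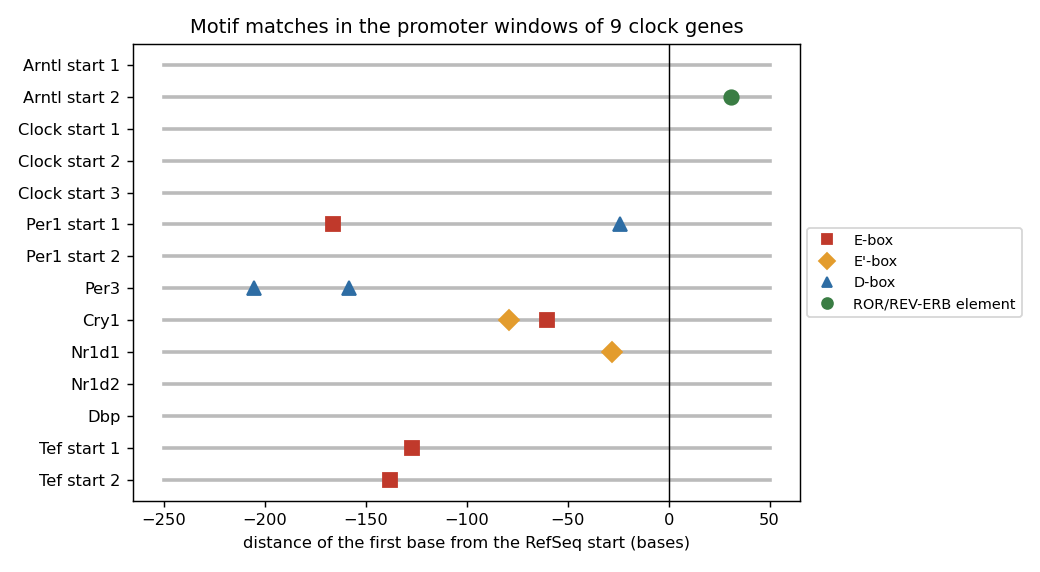
Each grey line is 1 RefSeq promoter window of a clock gene, from 250 bases before to 50 bases after the start on the horizontal axis (bases), and symbols mark the first base of each motif match, with E' standing for the variant E-box. The E-box of Cry1 begins 60 bases before the start, that of Per1 166 bases before it, and those of Tef 127 and 138 bases before its 2 starts.

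The comparison asks which of these transcripts differ between muscle that received TFEB and muscle that received GFP. The values are log2 levels as deposited, and each log2 fold change is TFEB minus GFP and stands with its standard error (n = 3 and 3 arrays). The repressor genes of the second loop and the PAR bZIP outputs passed as lower in the TFEB group on at least 1 probe set each, and Arntl passed at the edge of the fold limit. Clock, Per1, Per2, Per3 and Cry1 did not pass, with differences that were negative for Clock, Per1 and Per2, near 0 for Per3 and positive for Cry1. A probe set passed the threshold at a limma adjusted p under 0.05, over all 22626 probe sets, together with a fold change of at least 1.5. Of the 18 probe sets, 7 passed with a lower level, whereas 6.11% of all probe sets did. None of the 18 passed with a higher level by limma (1 at an unadjusted p under 0.05, and 0 by the methods' t-test), whereas 7.51% of all probe sets did. With no fold limit, 9 were lower and 1 higher, beside 18.1% and 14.5% of all probe sets. The groups did not overlap at 11 of the 18, 10 lower and 1 higher, beside 29.7% and 20.1% of all probe sets. With each gene read by its probe set of highest mean, 3 of the 10 genes passed as lower (Arntl, Nr1d1 and Dbp) and none as higher, beside 4.9% and 8.62% of all genes. The median log2 fold change over the 10 genes was -0.38, against -0.05 over all genes. Probe sets of 1 gene share a transcript, so the 18 are not separate observations.

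**Figure D2:**
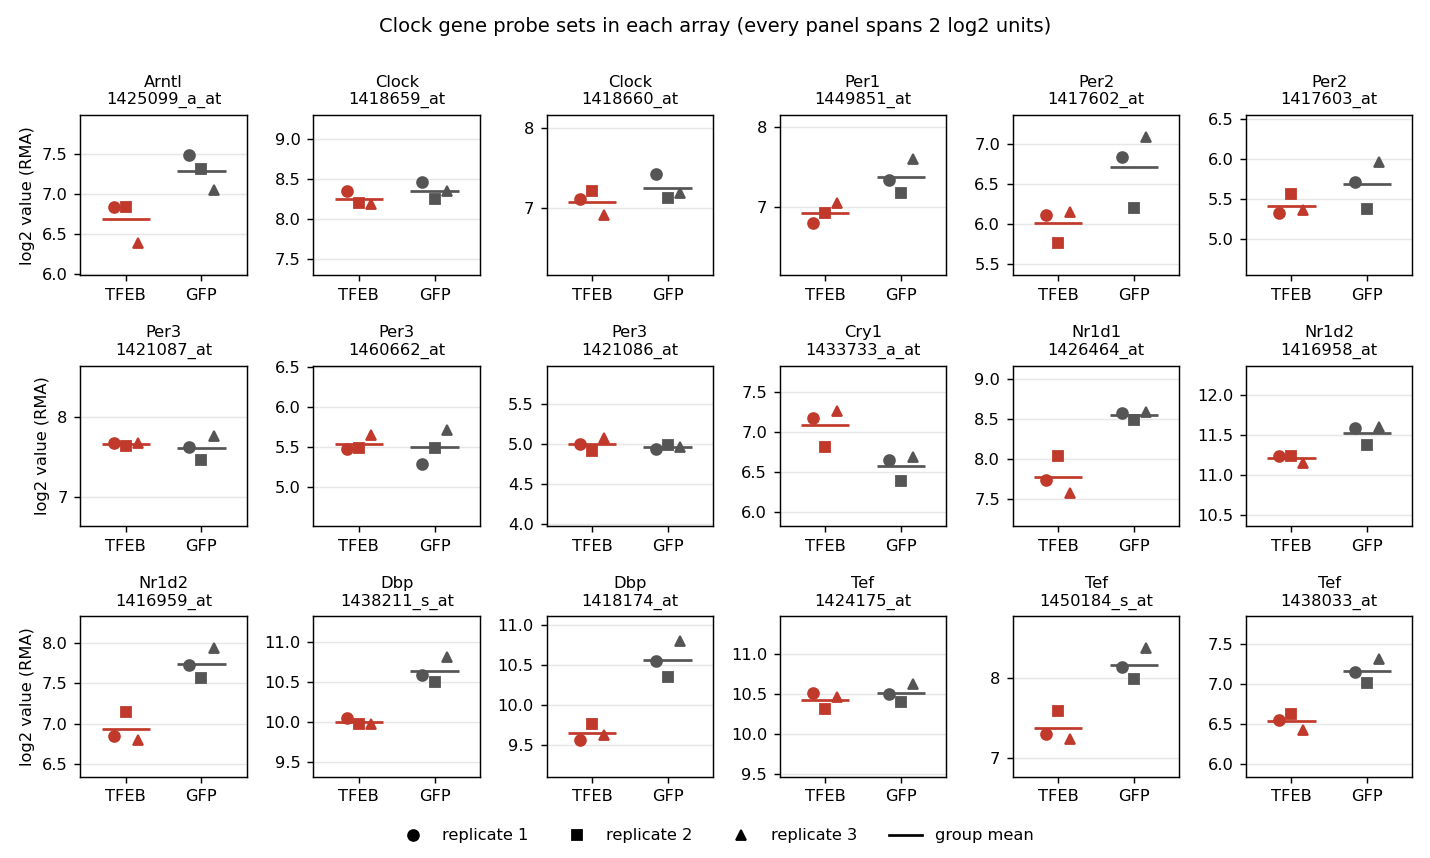
Each panel gives the log2 value of 1 probe set in the 3 TFEB arrays (red, left) and the 3 GFP arrays (grey, right), with the replicate as the symbol and a line at the group mean. The TFEB arrays lie under every GFP array for Nr1d1, both Nr1d2 probe sets, both Dbp probe sets and 2 of 3 Tef probe sets. They also do so for Arntl, Per1 and the Per2 probe set of highest mean, and lie above every GFP array for Cry1.

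The REV-ERB genes were lower in every TFEB array. Nr1d1, on its single probe set, had log2 values of 7.73, 8.03 and 7.58 in the TFEB arrays, replicates 1 to 3, against 8.57, 8.48 and 8.59 in the GFP arrays. All 3 TFEB values lay under the lowest GFP value, and the SD was 0.23 in the TFEB arrays, against 0.057 in the tightly grouped GFP arrays. Nr1d1 fell 1.70-fold (log2 fold change -0.77 ± 0.12, adjusted p = 0.0051), and it passed in all 14 alternatives run on it. Nr1d2 was read by 2 probe sets that disagreed in size. On the probe set of lower mean its values were 6.85, 7.14 and 6.79 in the TFEB arrays, against 7.73, 7.57 and 7.95 in the GFP arrays, a fall of 1.77-fold (-0.82 ± 0.13, adjusted p = 0.0055). On that of highest mean they were 11.24, 11.24 and 11.15 in the TFEB arrays, against 11.60, 11.38 and 11.60 in the GFP arrays. The groups did not overlap there either, but the difference of -0.32 ± 0.085 (adjusted p = 0.030, with 0.0082 to 0.10 over the alternatives) was under the fold limit. The first of these passed in all 14 alternatives and the second in none.

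The PAR bZIP outputs held the steepest difference of the 10 genes. Dbp had log2 values of 9.56, 9.76 and 9.62 in the TFEB arrays, against 10.54, 10.35 and 10.79 in the GFP arrays, on its probe set of lower mean. That was a fall of 1.89-fold (-0.91 ± 0.12, adjusted p = 0.0031), the largest log2 fold change among the 18 probe sets. On that of highest mean its values were 10.06, 9.97 and 9.98 in the TFEB arrays, against 10.59, 10.50 and 10.81 in the GFP arrays, a fall of 1.55-fold (-0.63 ± 0.096, adjusted p = 0.0043). Both probe sets separated the groups by more than the spread within either. Without GFP control replicate 3, the highest control, the probe set of highest mean gave -0.54 and was under the fold limit.

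Tef was lower on 2 of its 3 probe sets. On that of middle mean it had log2 values of 7.29, 7.58 and 7.23 in the TFEB arrays, against 8.14, 7.98 and 8.36 in the GFP arrays (-0.79 ± 0.13, adjusted p = 0.0063). On that of lowest mean the values were 6.55, 6.63 and 6.42 in the TFEB arrays, against 7.15, 7.02 and 7.31 in the GFP arrays (-0.62 ± 0.10, adjusted p = 0.0054). Neither probe set had any overlap between the groups. The third, of highest mean, gave 10.51, 10.31 and 10.46 in the TFEB arrays, against 10.50, 10.40 and 10.63 in the GFP arrays. There the groups overlapped, and the difference of -0.08 ± 0.092 had a 95% interval of -0.30 to 0.14. Tef therefore counts as not passed where each gene is read by its probe set of highest mean. Which part of the transcripts each probe set reads was not looked up. The probe set of lowest mean was under the fold limit without TFEB replicate 3 (-0.57) or GFP control replicate 3 (-0.55).

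**Figure D3:**
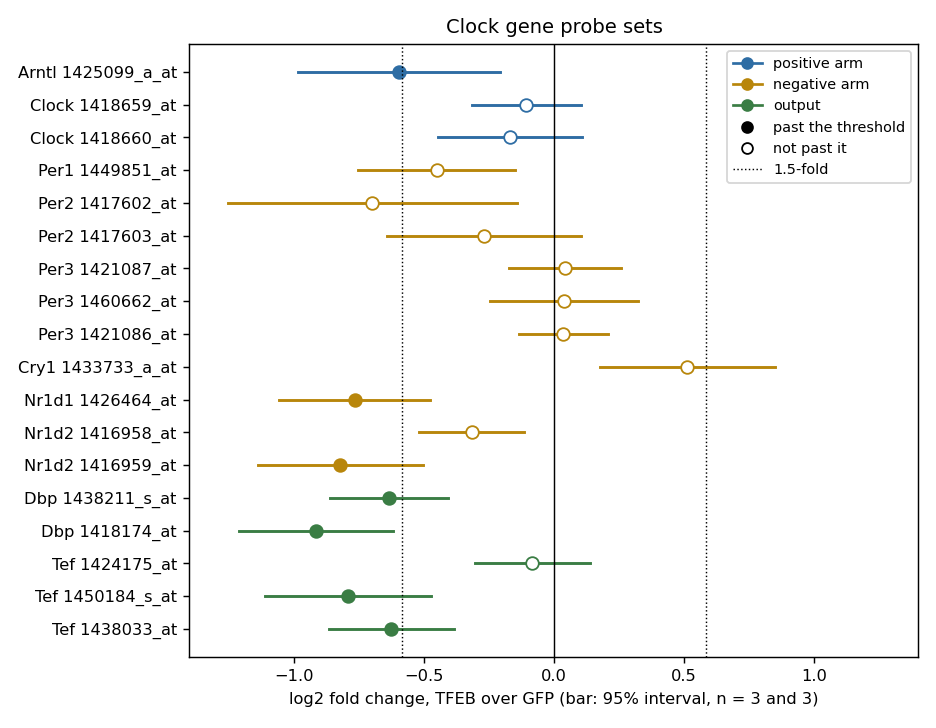
Points give the log2 fold change of TFEB over GFP (n = 3 and 3 arrays) for each of the 18 clock gene probe sets and bars its 95% interval from limma, with filled points past the threshold and dotted lines at 1.5-fold. The 7 filled points belong to Arntl, Nr1d1, Nr1d2, Dbp and Tef, with Dbp at -0.91 the farthest to the left and Cry1 at 0.51 the farthest to the right.

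The positive arm was divided. Arntl, whose protein is the partner of CLOCK, had log2 values of 6.84, 6.84 and 6.39 in the TFEB arrays, against 7.49, 7.32 and 7.05 in the GFP arrays. The groups did not overlap, although the highest TFEB value and the lowest GFP value were close. Arntl fell 1.51-fold (-0.60 ± 0.16, adjusted p = 0.032), just past both limits. The call was lost in 8 of 14 alternatives, with an adjusted p of 0.013 to 0.10 over them. Among these were the fits without TFEB replicate 1 (adjusted p = 0.051), TFEB replicate 2 (0.053), TFEB replicate 3 (-0.45, adjusted p = 0.080) and GFP control replicate 1 (-0.49, adjusted p = 0.092), and that without GFP control replicate 2, which put it just under the fold limit (-0.58). Clock, which encodes the histone acetyltransferase partner, gave 8.34, 8.19 and 8.18 in the TFEB arrays, against 8.45, 8.24 and 8.34 in the GFP arrays, on its probe set of highest mean. The groups overlapped on both of its probe sets. The differences were -0.11 ± 0.087 (95% interval -0.31 to 0.10, adjusted p = 0.38) and -0.17 ± 0.12 (95% interval -0.45 to 0.11, adjusted p = 0.30), so falls of up to 1.36-fold remain within the second interval.

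The period and cryptochrome genes did not move as a group. Per1, a repressor gene that also answers rapidly to hormones and light, had log2 values of 6.79, 6.92 and 7.05 in the TFEB arrays, against 7.34, 7.17 and 7.60 in the GFP arrays. The groups did not overlap and the difference was -0.45 ± 0.13 (adjusted p = 0.034, with 0.010 to 0.10 over the alternatives), under the fold limit. Per2 on its probe set of highest mean gave 6.12, 5.77 and 6.15 in the TFEB arrays, against 6.84, 6.20 and 7.09 in the GFP arrays. Its difference of -0.70 ± 0.23 exceeded the fold limit but missed the adjusted p (0.060), with GFP control replicate 2 far under the other controls. Without that array Per2 passed, at -0.95 (adjusted p = 0.0024). The other Per2 probe set gave -0.27 ± 0.16 (adjusted p = 0.23), with overlapping groups.

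Per3 was flat on all 3 of its probe sets. On the highest of them in mean it had log2 values of 7.67, 7.63 and 7.68 in the TFEB arrays, against 7.62, 7.47 and 7.77 in the GFP arrays. The TFEB values lay inside the range of the GFP values. The differences were 0.04 ± 0.091, 0.04 ± 0.12 and 0.03 ± 0.072, and their 95% intervals together ran from -0.25 to 0.32, so a change past the fold limit lay outside each interval. The other Per3 probe sets were dim, at the level percentiles 36.1 and 28.9 of all probe sets, and whether they lay above background was not tested.

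Cry1 lay higher in the TFEB group without passing the threshold. It encodes the cryptochrome that most strongly blocks CLOCK and BMAL1. Its log2 values were 7.17, 6.81 and 7.25 in the TFEB arrays, against 6.64, 6.38 and 6.68 in the GFP arrays. Every TFEB array lay above every GFP array, and the difference was 0.51 ± 0.14 (1.43-fold, adjusted p = 0.033, with 0.015 to 0.11 over the alternatives), under the fold limit. Without TFEB replicate 2, the lowest of the TFEB arrays, Cry1 passed at 0.65 (adjusted p = 0.017). The E-box letters printed above are shared by Cry1 with Tef and Per1, and the variant with Nr1d1, and among these genes Cry1 alone lay higher in the TFEB group.

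The spread within the groups was not even among the arrays. GFP control replicate 2 had the lowest of the control values at 15 of the 18 probe sets, and GFP control replicate 3 the highest at 14. Arntl was an exception, since GFP control replicate 3 was its lowest control (7.05) while being the highest control for Per1, Per2, Dbp and Tef. In the TFEB arrays no replicate stood so apart, with replicates 1, 2 and 3 lowest at 4, 6 and 8 probe sets. TFEB replicate 2 was the highest TFEB array for Nr1d1, Nr1d2 and 2 of the 3 Tef probe sets, and the lowest for Cry1 and for the Per2 probe set of highest mean. The SD within a group ran from 0.025 to 0.26 in the TFEB arrays and from 0.027 to 0.46 in the GFP arrays, with Per2 at the top.

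Rora and Hlf, relatives of the loop and output genes, were lower as well. In a list of 12 other loop genes, 10 were measured, of which 2 fell (Rora and Hlf), 1 rose (Timeless) and 7 did not pass, with a median log2 fold change of -0.14, beside 4.9% of all genes lower and 8.62% higher. Rora, which encodes the activating receptor that competes with REV-ERB, had log2 values of 9.50, 9.42 and 9.51 in the TFEB arrays, against 10.60, 10.52 and 10.43 in the GFP arrays. It fell 2.05-fold (-1.04 ± 0.076, adjusted p = 0.00057), and all 3 of its probe sets passed, the others at -1.48 and -1.47. Both the activating receptor gene and the REV-ERB repressor genes were thus lower in the TFEB group. Hlf gave 6.24, 5.69 and 5.93 in the TFEB arrays, against 7.41, 6.83 and 7.51 in the GFP arrays. It fell 2.46-fold (-1.30 ± 0.21, adjusted p = 0.0058), and by -1.74 on its second probe set. Rora and Hlf passed in all 14 alternatives. With Dbp and Tef, all 3 PAR bZIP genes thus had at least 1 probe set that passed as lower.

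The other named loop genes were mixed. Nfil3, the repressor at D-box motifs, was lower by -0.34 ± 0.088 (adjusted p = 0.028), and Bhlhe40, a repressor at E-boxes, by -0.34 ± 0.10 (adjusted p = 0.039), both under the fold limit. Cry2 gave -0.11 ± 0.16 (adjusted p = 0.63). Npas2 gave -0.15 ± 0.082 (adjusted p = 0.20) on its probe set of highest mean. On its other probe set it was higher by 0.54 (adjusted p = 0.0063), under the fold limit. The values there were low, at 4.10, 3.98 and 3.99 in the TFEB arrays, against 3.59, 3.33 and 3.53 in the GFP arrays. Timeless, a mammalian gene known mainly for DNA replication, was higher by 0.86 ± 0.24 (adjusted p = 0.035), but its second probe set gave -0.08, and the call was lost without any one of TFEB replicates 1 (adjusted p = 0.064), 2 (0.095) or 3 (0.11) or GFP control replicate 3 (0.079). Of 12 genes for enzymes that modify or degrade clock proteins, 9 were measured and 0 passed by limma (1 higher and 1 lower at an unadjusted p under 0.05, and 0 by the methods' t-test), with a median of 0.06. Of all genes, 4.9% passed as lower and 8.62% as higher. The 2 of smallest p were Usp2, a deubiquitinase gene that is itself rhythmic, at -0.55 ± 0.095 (adjusted p = 0.0069), and Csnk1d, a kinase gene of PER proteins, at 0.23 ± 0.086 (adjusted p = 0.082). Usp2 had log2 values of 10.11, 10.08 and 10.24 in the TFEB arrays, against 10.65, 10.59 and 10.85 in the GFP arrays, with no overlap, and its second probe set passed at -1.01. It passed on the first as well without TFEB replicate 3 (-0.60) or GFP control replicate 2 (-0.61). Fbxw11 gave -0.03 (adjusted p = 0.76) on its probe set of highest mean, and 1 of its 3 probe sets passed as lower at -0.84 (adjusted p = 0.0034).

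**Figure D4:**
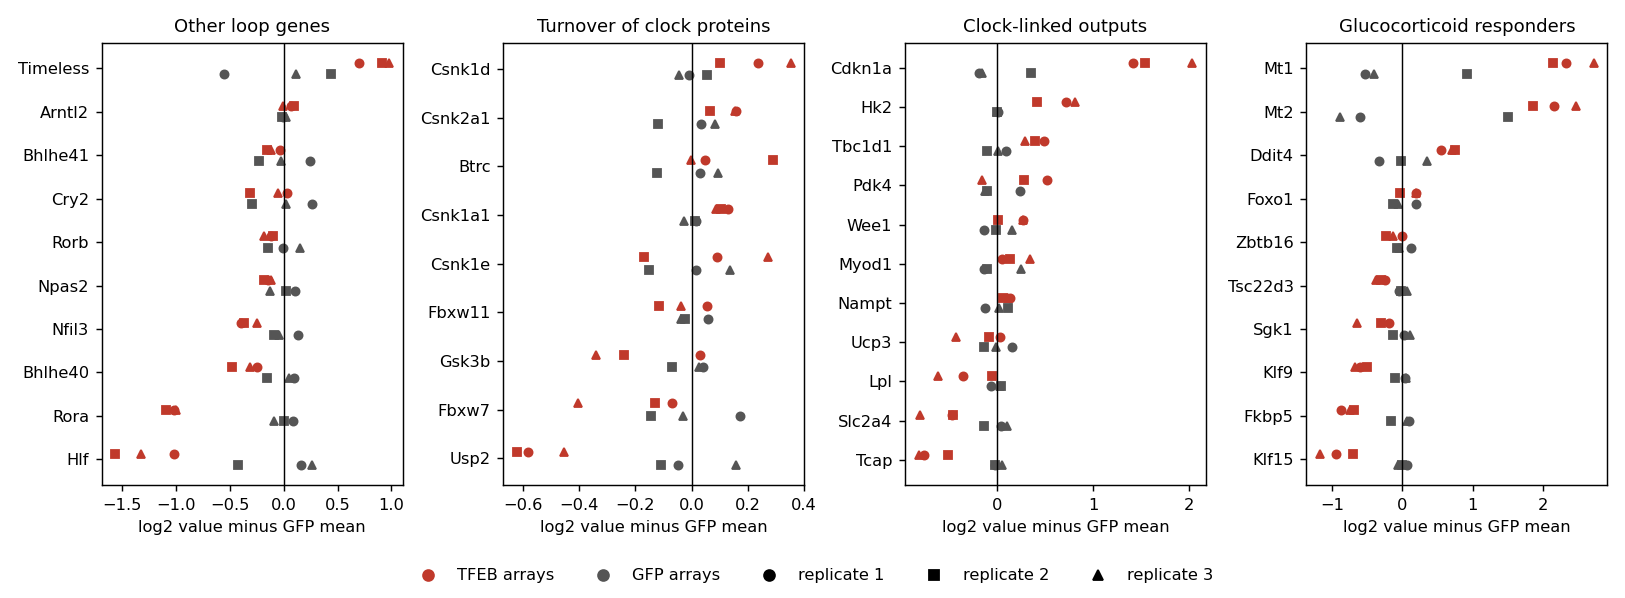
Points are single arrays of the genes in 4 lists, placed by their difference from the gene's GFP mean (log2, horizontal axis), with TFEB arrays in red, GFP arrays in grey and the replicate as the symbol. Rora, Hlf, Tcap, Klf15, Fkbp5 and Klf9 lie to the left in all 3 TFEB arrays, and Cdkn1a, Mt1 and Mt2 to the right.

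With each gene read by its probe set of highest mean, most genes known to follow the clock in muscle did not pass. Of 13 such output genes 11 were measured, 2 rose, 1 fell and 8 did not pass, with a median of 0.17, beside 8.62% of all genes higher and 4.9% lower, so these few calls are no result about the list. Cdkn1a, which encodes the cell cycle inhibitor p21 and is known as a REV-ERB target in mouse liver, had log2 values of 9.36, 9.48 and 9.98 in the TFEB arrays, against 7.75, 8.30 and 7.78 in the GFP arrays. It rose 3.17-fold (1.67 ± 0.21, adjusted p = 0.0024). Tcap, the gene of the sarcomere protein telethonin, gave 12.61, 12.86 and 12.55 in the TFEB arrays, against 13.35, 13.35 and 13.42 in the GFP arrays, a fall of 1.62-fold (-0.70 ± 0.097, adjusted p = 0.0033). Hexokinase 2 (Hk2) was higher by 0.64 ± 0.11 (adjusted p = 0.0067) and lost the call without TFEB replicate 3 (0.56). Slc2a4, the gene of GLUT4, gave -0.58 ± 0.12 (adjusted p = 0.013), just under the fold limit, and its other probe set passed at -0.92. Tbc1d1 gave 0.39 ± 0.088 (adjusted p = 0.017), under the fold limit, and 1 of its 3 probe sets passed at 0.66. The study reports both genes as increased by PCR in muscle given TFEB, so the Slc2a4 values here ran the other way. That PCR was normalized to Gapdh and set gastrocnemius given TFEB, and transgenic muscle, against wild-type muscle. The arrays here were set against muscle given GFP, and the muscle taken was not found, so the 2 measures are not alike. Nampt, the enzyme gene of NAD recycling, gave 0.10 on its probe set of highest mean (adjusted p = 0.38), with overlapping groups. The other probe set passed as lower at -0.73, so only 1 of its 2 probe sets showed a difference. Slc2a4, Tbc1d1 and Nampt thus passed on at least 1 probe set each, the rule by which Nr1d2 and Tef were called lower above.

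Glucocorticoid responders were split between falls and rises. Glucocorticoids follow the time of day and act on Per1 and on several muscle genes. In a list of 10 genes, 3 rose, 3 fell and 4 did not pass, with a median of -0.21, beside the same 8.62% and 4.9% of all genes. Klf15, a regulator of amino acid and lipid use, had log2 values of 7.57, 7.80 and 7.34 in the TFEB arrays, against 8.57, 8.50 and 8.44 in the GFP arrays (-0.94 ± 0.12, adjusted p = 0.0029). Fkbp5, a chaperone gene of the glucocorticoid receptor, gave 7.65, 7.84 and 7.78 in the TFEB arrays, against 8.62, 8.37 and 8.59 in the GFP arrays (-0.77 ± 0.096, adjusted p = 0.0024). For both, all TFEB values were under all GFP values in a step of about the size seen for Nr1d1 and Dbp. Klf9, whose product is a zinc finger factor, fell by 0.59 ± 0.083 (adjusted p = 0.0034), with 3 of its 7 probe sets past the threshold and all 7 lower. Of the 4 that did not pass, Tsc22d3 gave -0.31 ± 0.071 (adjusted p = 0.019), under the fold limit. Another of its 3 probe sets passed as lower at -0.62. Sgk1 gave -0.38 (adjusted p = 0.069), Zbtb16 -0.12 (0.34) and Foxo1 0.12 (0.44).

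The rises in this list were those of metal-binding and stress genes. The metallothionein gene Mt1 rose 5.26-fold (2.39 ± 0.38, adjusted p = 0.0053) on 1 of 2 probe sets, and Mt2 4.47-fold (2.16 ± 0.60, adjusted p = 0.034). Mt2 stood at 11.13, 10.82 and 11.44 in the TFEB arrays, against 8.37, 10.47 and 8.08 in the GFP arrays, so GFP control replicate 2 was near the TFEB arrays, and without it the log2 fold change of Mt2 was 2.91 (adjusted p = 0.00018). Ddit4, an inhibitor gene of mTORC1, rose 1.59-fold (0.67 ± 0.17, adjusted p = 0.026). The 6 calls of this list dropped to 3 without TFEB replicate 3 or GFP control replicate 1, with Klf9, Ddit4 and Mt2 lost in each. Ddit4 and Mt2 also lost the call without TFEB replicate 1 (adjusted p = 0.051 and 0.085) or TFEB replicate 2 (0.080 and 0.070), and Klf9 (-0.56) and Mt2 (adjusted p = 0.099) without GFP control replicate 3.

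Other properties of the arrays moved with the groups. The muscle list (Acta1, Ckm, Myh4 and others) had 0 of 7 genes past the threshold. Its list means were 13.95 to 13.99 in the TFEB arrays and 14.03 to 14.06 in the GFP arrays, so the labelled tissue showed its defining transcripts. These means did not overlap between the groups, and they lay near the highest values of the arrays (14.34 to 14.37). With no fold limit 1 gene was lower (Actn3, -0.27 ± 0.065, adjusted p = 0.020) and 0 were higher. Whether the share of muscle RNA differed was not tested. Past the threshold as higher were 3 of 5 fibroblast markers (list mean 11.02 to 11.36 in TFEB, 9.96 to 10.24 in GFP), 3 of 5 endothelial markers (8.08 to 8.28 in TFEB, 7.21 to 7.52 in GFP), 2 of 4 satellite cell markers (6.32 to 6.58 in TFEB, 5.55 to 5.90 in GFP) and 1 of 7 macrophage markers (8.13 to 8.81 in TFEB, 6.74 to 8.55 in GFP). The 2 measured adipocyte markers did not pass, but their list mean was lower in every TFEB array (5.34 to 5.98 in TFEB, 6.05 to 6.98 in GFP). The 2 measured Schwann cell markers did not pass, and their list means overlapped (7.68 to 8.05 in TFEB, 7.85 to 8.34 in GFP). The macrophage list mean of GFP control replicate 2 (8.55) lay within the TFEB range, and those of the other controls were 6.74 and 6.88. That array also had the lowest control value at 15 of the 18 clock probe sets. The 3′ minus 5′ difference of beta-actin, a sign of RNA quality, was 0.22 to 0.34 in TFEB and 0.037 to 0.077 in GFP (log2). That of Gapdh was -0.038 to 0.053 in TFEB and -0.071 to -0.061 in GFP, and the mean level of the 18S ribosomal RNA probe sets was 11.16 to 11.81 in TFEB and 12.01 to 12.45 in GFP, so none of these 3 measures overlapped between the groups. The part of these properties in the clock gene differences was not tested. The time of day at which each muscle was taken was not found, so its part in these differences was not tested either. In whole muscle, fewer cells of a type and less RNA per cell cannot be told apart.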

How the data were processed

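The labels' biological replicates were 3 arrays per group. The authors deposited 1 log2 value per probe set and array, made with the affy package and RMA per the labels (background correction, quantile normalization, probe set summary, versions not stated), so a change shared by most transcripts would be partly removed. There is no read depth here, so precision rests on the number of arrays. From the 22690 probe sets, 64 controls were left out. GEO's platform annotation gave 1 symbol to 20380 of the 22626 tested. Groups were compared with limma 3.58.1 (lmFit, eBayes, two-sided) in R 4.3.3, with Benjamini-Hochberg adjustment over all 22626. Fold limit and adjusted p follow the legend to the gene list of the study, whose own array test was not found in the sources used here. In simulated data for this comparison (22626 probe sets, 200 changed), 81% of 2-fold and 94% of 4-fold changes were recovered, with 4 false calls.

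Members, lists, tests and alternatives were chosen with earlier results of these data known. Named are all members, and per list up to 6 genes past the threshold or else the 2 of smallest p. Nfil3, Bhlhe40, Cry2, Npas2, Fbxw11, Nampt, Slc2a4, Tbc1d1, Tsc22d3, Sgk1, Zbtb16, Foxo1 and Actn3 were named after their values were seen. Alternatives were leaving out each array, the replicate number as a block, scalings, a brightness filter, array weights, a variance trend, the methods' t-test (the test in the study's general statistics), no fold limit and other choices of probe set.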

Additional observations from a re-analysis of the deposited data

How the results depend on the processing

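The count of clock probe sets past the threshold, 7, was 5 to 7 with 1 array left out and 6 to 10 in the other alternatives. That of clock genes, 3, was 2 to 3 with 1 array left out, 6 with no fold limit and 5 with the probe set of smallest p. With no fold limit the loop genes gave 5, the turnover genes 1 and the output genes 5. With the probe set of smallest p, the turnover genes gave 2 and the output genes 6. Of all probe sets, 18.1% were lower and 14.5% higher with no fold limit, beside 6.11% and 7.51% with it. The shares of all genes in these 2 settings were not computed, so the counts there are no result about the clock genes or the lists. The turnover genes, at 0, gave 1 with equal medians, with array weights and with probe sets averaged per gene. With 1 array left out, the loop genes gave 2 to 3, the turnover genes 0 to 1, the output genes 2 to 4 and the glucocorticoid responders 3 to 6. Of the 804 refits of single genes and probe sets, 755 kept their side of the threshold, 35 lost a call, 14 gained one and 0 called values changed sign. With the replicate number as a block, 8 clock probe sets passed, Per2 being the addition, and Mt2 did not (adjusted p = 0.057). Deviations of arrays with the same number correlated at 0.42, 0.17 and -0.23, and those of arrays with different numbers at -0.44 to 0.33. With 3 arrays per group these values cannot decide whether the numbers pair the mice. The brightness filter left out both Per2 probe sets and 2 of Per3. Small differences of dim probe sets were limited by their signal, which was not tested against background.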
